A study of Mus musculus with 4 samples.

Results

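Genes of the extracellular matrix and of the enzymes that cut it were followed in mouse libraries labelled liver: collagens, laminins, matrix proteoglycans and glycoproteins, lysyl oxidases, matrix metalloproteinases and their tissue inhibitors. They were chosen by gene symbol, with earlier results of these data known. The choice took all listed genes of the Col, Lam, Mmp and Timp families. Added to these were Dcn, Lum, Bgn, Fn1, Sparc, Loxl1, Loxl2, Hspg2, Nid1, Nid2, Vcan and Fbn1. This gave 78 of the 15500 genes in the expression table, of which 38 are collagens. Col1a2 and Lox were not analysed here.

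The study asked how dietary conjugated linoleic acid (CLA) acts on the liver and whether PPARα, a nuclear receptor for fatty acids, is involved. All animals were male Kunming mice, an outbred stock, bought at 5 weeks of age and kept on chow for 1 week before the diets began. The Vehicle group ate chow with 1.5% (w/w) linoleic acid, with vehicle injections where they applied, and the CLA group ate chow with 1.5% (w/w) CLA. The GW6471 group ate the linoleic acid diet and was injected intraperitoneally every day with 20 mg/kg of GW6471, an antagonist of PPARα, and the CLA+GW6471 group received the CLA diet with the same injections. The diets lasted 28 days, with 6 mice in each group, and livers were taken at zeitgeber time 8 h. A single RNA-seq library stood for each group, so a difference between groups had no replicate error and no test between groups was made. It was not given in the sources used here whether a library held 1 mouse or a pool.

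The matrix of a healthy liver is sparse. Fibrillar collagens and small proteoglycans such as decorin lie around the portal tracts and are made mainly by stellate cells and fibroblasts, while fibronectin is secreted in large amounts by hepatocytes. Basement membranes are built from a laminin network and a type IV collagen network tied together by nidogen and perlecan. Metalloproteinases cut these proteins, and TIMP proteins block the metalloproteinases.

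Expression was given as FPKM, fragments scaled for transcript length and for the total mapped. This allows genes to be compared with each other, while a comparison of libraries also depends on their composition. Summed FPKM ran from 497015 to 522893, and the depth estimated from the smallest steps of the values was 18770976 to 19260657 reads, so the libraries differed little in depth. The labelled tissue was compared with cell type markers. Of 16 hepatocyte markers, 12 were listed and 6 reached a mean of 1 FPKM, with Alb at 922 FPKM, whereas Ttr, Fga, Cyp2e1 and Cps1 stayed under a mean of 0.1 FPKM. The summed hepatocyte list was 1021 FPKM in Vehicle, 1891 with CLA, 1545 with GW6471 and 951 with both. Of 14 markers of stellate cells and fibroblasts, 9 were listed and 2 reached a mean of 1 FPKM, and their sum was 54.7, 79.5, 66.4 and 46.3 FPKM in the same order, nearly all of it Vim. Acta2 and Pdgfrb, which define activated stellate cells and pericytes, had means of 0.01 and 0.03 FPKM. No endothelial marker reached a mean of 1 FPKM, and of 10 macrophage and leucocyte markers only Cd68 did, with the list at 24.5, 37.0, 25.97 and 25.3 FPKM in that order. The list of 8 bile duct and simple epithelial markers summed to 2069 to 2389 FPKM, led by Krt18 with a mean of 1263 FPKM. Among 8 stratified epithelial markers, Sprr1a had a mean of 19942 FPKM and Krt5 of 3.25 FPKM, and the others were at 0.06 FPKM or less. Sprr1a, a gene of stratified epithelium, was thus the highest of all listed genes, while several defining hepatocyte genes were near 0. These markers go against the tissue label in part, so the label is in doubt, and each value here is that of a library labelled liver.

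Promoter windows of 4 metalloproteinase genes are shown first because Mmp13 held most of the metalloproteinase signal, Mmp3 and Mmp10 lie in its cluster, and Mmp24 also passed 1.5-fold in CLA against Vehicle. Mmp13 (collagenase 3), Mmp12 (macrophage elastase), Mmp3 (stromelysin 1), Mmp10 (stromelysin 2) and Mmp27 lie on chromosome 9 within 309372 bp in mm9, whereas Mmp24, a membrane-anchored metalloproteinase, lies on chromosome 2. The 120 bases before the RefSeq transcript start are given 5′ to 3′ on the sense strand, from RefSeq promoters of GRCm38.p6 that matched mm9 exactly, with mm9 positions. Capitals mark a motif of the factor AP-1, TGAGTCA on either strand, and the TATA motif TATAAA.
Mmp13, chr9:7272394-7272513, plus strand: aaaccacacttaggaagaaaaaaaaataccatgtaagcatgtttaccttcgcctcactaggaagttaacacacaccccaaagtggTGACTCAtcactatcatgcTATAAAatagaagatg
Mmp3, chr9:7445702-7445821, plus strand: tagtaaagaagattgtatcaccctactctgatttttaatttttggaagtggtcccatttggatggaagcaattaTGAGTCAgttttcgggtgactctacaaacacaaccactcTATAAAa
Mmp10, chr9:7502222-7502341, plus strand: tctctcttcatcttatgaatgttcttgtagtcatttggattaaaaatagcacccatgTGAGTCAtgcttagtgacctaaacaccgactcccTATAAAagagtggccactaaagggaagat
Mmp24, chr2:155600958-155601077, plus strand: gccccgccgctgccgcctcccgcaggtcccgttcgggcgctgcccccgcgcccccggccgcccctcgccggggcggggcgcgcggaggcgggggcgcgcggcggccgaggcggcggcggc

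The 3 windows from chromosome 9 each held 1 AP-1 match and 1 TATA match and had a GC content of 35.8% to 39.2%. The Mmp24 window held neither and had a GC content of 91.7%. In the 250 bases before the start, an AP-1 match was found in 1395 of 27025 RefSeq promoters (5.16%) and in 5 of the 55 matrix genes that had a promoter entry. These were Mmp13 at 35 bases before the start, Mmp12 at 44, Mmp3 at 46, Mmp10 at 63 and Col6a1, a chain of microfibril collagen VI, at 90. TATAAA was found in 14.3% of all promoters and in 7 of the 55. The DR1 motif bound by PPARα with its partner RXR, searched strictly as 2 copies of AGGTCA with 1 base between them, was found in 11 of 27025 promoters and in 0 of the 55. A match is a description of these letters and not evidence of binding.

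A few genes carried most of the matrix signal. Dcn, Fn1 and Mmp13 together made up 81.3% of the summed FPKM of the 78 genes in Vehicle, 78.3% with CLA, 80.0% with GW6471 and 81.2% with both. The sum itself was 4258, 4191, 4240 and 4062 FPKM. Most of the other genes were barely detected: 31 of the 78 (39.7%) reached a mean of 1 FPKM over the 4 libraries, against 66.8% of all listed genes, and 32 stayed under a mean of 0.1 FPKM. The median of the mean level was 0.255 FPKM for the 78 genes and 5.97 FPKM for all listed genes.

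**Figure D1:**
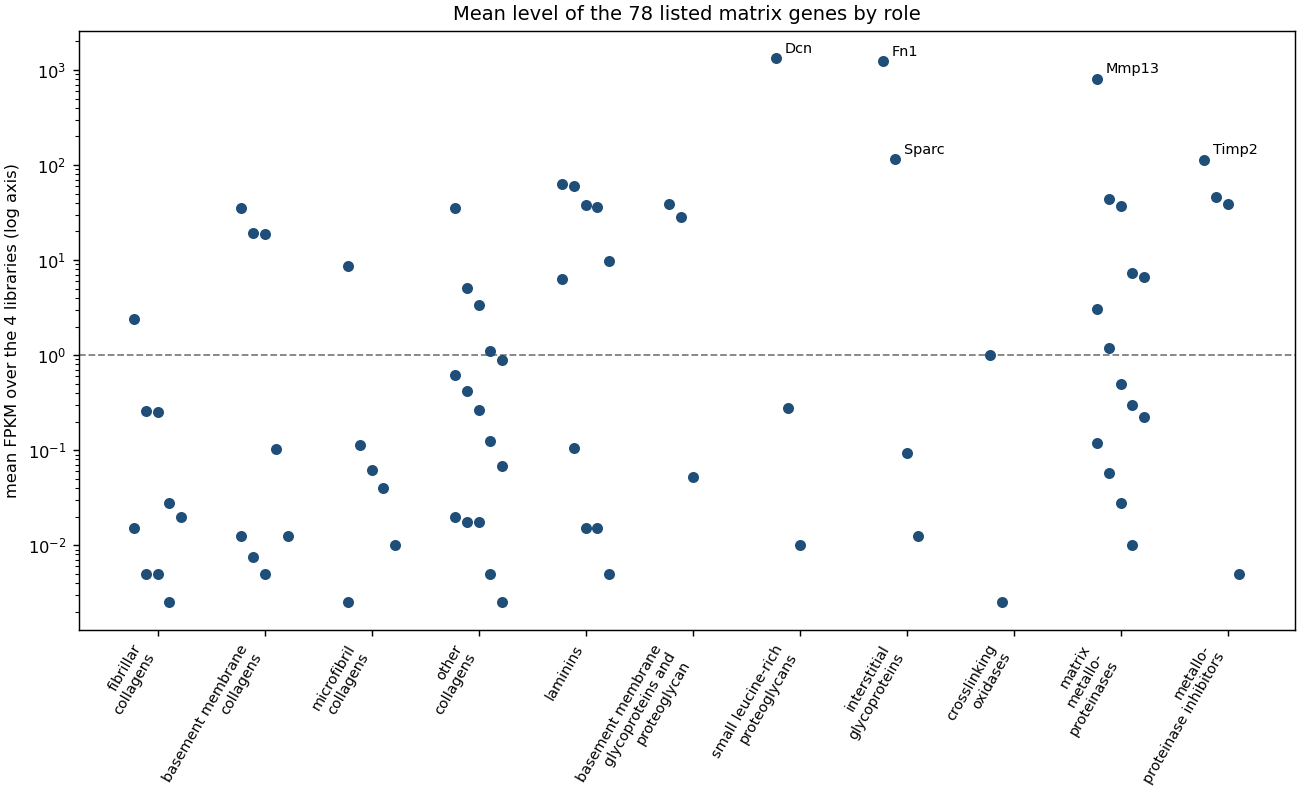
Mean FPKM over the 4 libraries (log axis) of each of the 78 matrix genes, 1 point per gene, grouped by role, with the limit of 1 FPKM marked. Dcn, Fn1 and Mmp13 stand above all others, and 8 of 9 fibrillar collagens lie under 1 FPKM.

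Fibrillar collagens, the main load-bearing fibres of scar and connective tissue, were close to absent. All 9 listed genes together summed to 2.71 to 3.13 FPKM per library, and most of that was Col27a1, a fibrillar collagen best known from cartilage. Col27a1 was at 2.53 FPKM in Vehicle, 2.57 with CLA, 2.48 with GW6471 and 2.09 with both. Col1a1, the major chain of type I collagen, was at 0.25, 0.30, 0.33 and 0.15 FPKM in that order, which stands for about 28, 33, 37 and 17 reads. Col3a1, the only chain of type III collagen, was listed at 0, 0.01, 0.01 and 0 FPKM. Both Col1a1 and Col3a1 were under the mean of 1 FPKM set for comparing groups. Lum, a small proteoglycan that shapes collagen fibrils, was likewise listed at 0 in Vehicle and GW6471 and at 0.02 FPKM in CLA and CLA+GW6471. Fbn1, the microfibril protein of elastic tissue, was at 0.01 to 0.02 FPKM.

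Against that background decorin was very abundant. Dcn, a small leucine-rich proteoglycan that binds collagen fibrils and TGF-beta, ranked 52nd of 15500 genes by mean level. It was at 1287 FPKM in Vehicle, 1506 with CLA, 1350 with GW6471 and 1148 with both. CLA was highest and CLA+GW6471 lowest, and every ratio stayed under 1.5-fold. Its neighbour Lum, which lies 47357 bp away on chromosome 10 of mm9, was at or near 0 in all 4 libraries. Bgn, the relative of decorin encoded on the X chromosome, was at 0.41, 0.23, 0.06 and 0.41 FPKM.

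Fn1, which encodes fibronectin of plasma and of the cell surface matrix, ranked 64th. It was at 1213 FPKM in Vehicle, 1270 with CLA, 1287 with GW6471 and 1144 with both, and its largest log2 ratio was -0.17, for CLA+GW6471 against GW6471. It shares 197 bp of exon with Apol7d on the opposite strand in mm9. Sparc, a collagen-binding glycoprotein of remodelling matrix, was at 99.6 FPKM in Vehicle, 150 with CLA, 113 with GW6471 and 98.5 with both. CLA stood above the other libraries for Sparc, while Vehicle and CLA+GW6471 were nearly equal. Vcan, a large proteoglycan of provisional matrix, stayed at 0.06 to 0.13 FPKM.

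Basement membrane genes fell into those at moderate levels and those near 0. None of those with a mean of at least 1 FPKM passed 1.5-fold in any comparison. Col4a1 and Col4a2, the ubiquitous chains of type IV collagen, lie head to head on chromosome 8 of mm9 with annotated 5′ ends that overlap by 22 bp, and their products combine in the same molecule. Col4a1 was at 17.1 FPKM in Vehicle, 19.1 with CLA, 20.5 with GW6471 and 19.1 with both. Col4a2 was at 17.2, 19.2, 21.5 and 19.0 FPKM in that order. The ratio of Col4a1 to Col4a2 stayed between 0.954 and 1.01 in the 4 libraries, so the pair moved together. The tissue-restricted chains Col4a3, Col4a4, Col4a5 and Col4a6 had means of 0.03 FPKM or less. Col15a1, a collagen of vessel basement membranes, was at 0.05, 0.23, 0.09 and 0.04 FPKM, which stands for 5, 22, 9 and 4 reads. Col18a1, the collagen that carries endostatin and is made by hepatocytes, was at 31.1 FPKM in Vehicle, 36.0 with CLA, 39.6 with GW6471 and 35.2 with both. For Col4a1, Col4a2 and Col18a1 alike, GW6471 was the highest library and Vehicle the lowest.

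Laminins, the heterotrimers that nucleate basement membranes, came from 6 of 10 listed chains. Lamb3, a beta chain of epithelial laminin, was at 62.8 FPKM in Vehicle, 71.5 with CLA, 63.3 with GW6471 and 56.1 with both. Lamc1, the gamma chain of most laminins, was at 58.1, 62.0, 64.7 and 55.1 FPKM. Lama5, the alpha chain of the most widespread adult laminins, was at 34.2, 37.6, 39.9 and 33.5 FPKM. Its ratio to Lamc1 stayed between 0.588 and 0.617. Lamb2 was at 35.9, 42.5, 40.2 and 34.5 FPKM, whereas the other common beta chain, Lamb1, was lowest in CLA, at 10.3, 8.40, 10.1 and 10.46 FPKM. The ratio of Lamb2 to Lamb1 was therefore 5.06 in CLA and 3.30 to 3.97 in the other libraries. Lama3, an alpha chain of epithelial laminin, was at 0.05 to 0.18 FPKM. Lama1, Lama2 and Lamc3 were at 0.03 FPKM or less.

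Hspg2, which encodes the heparan sulphate proteoglycan perlecan, was at 37.9 FPKM in Vehicle, 37.3 with CLA, 41.7 with GW6471 and 36.9 with both. Nid1, the nidogen that links laminin to type IV collagen, was at 28.9, 28.8, 29.9 and 25.9 FPKM. Both were nearly level across the libraries. Nid2 was at 0.03 to 0.07 FPKM.

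Of the remaining collagens, Col6a1 and Col14a1 passed 1.5-fold. Col6a1, a chain of the beaded filament collagen VI, was at 6.71 FPKM in Vehicle, 12.6 with CLA, 9.40 with GW6471 and 6.31 with both. Its partner chains Col6a2 and Col6a3 were at 0.03 to 0.16 FPKM in every library, although Col6a2 lies 85161 bp from Col6a1 on chromosome 10 of mm9. Col14a1, a fibril-associated collagen, was at 3.37, 4.55, 3.67 and 2.04 FPKM. In both Col6a1 and Col14a1, CLA was the highest library and CLA+GW6471 the lowest. Col8a1, a short-chain collagen of vessel walls and sheets, was at 35.9, 40.3, 37.0 and 29.7 FPKM, with its partner chain Col8a2 at 0.05 FPKM or less. Col22a1, a collagen of tissue junctions, was at 5.21, 4.68, 5.19 and 5.25 FPKM. Col12a1, a relative of Col14a1, was at 1 to 1.19 FPKM. Under a mean of 1 FPKM, and so not counted, Col7a1, the anchoring fibril collagen, was at 1.05, 0.84, 0.77 and 0.89 FPKM (136 to 182 reads). Col20a1 was at 0.70, 0.28, 0.54 and 0.93 FPKM (22 to 75 reads), lowest in CLA.

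**Figure D2:**
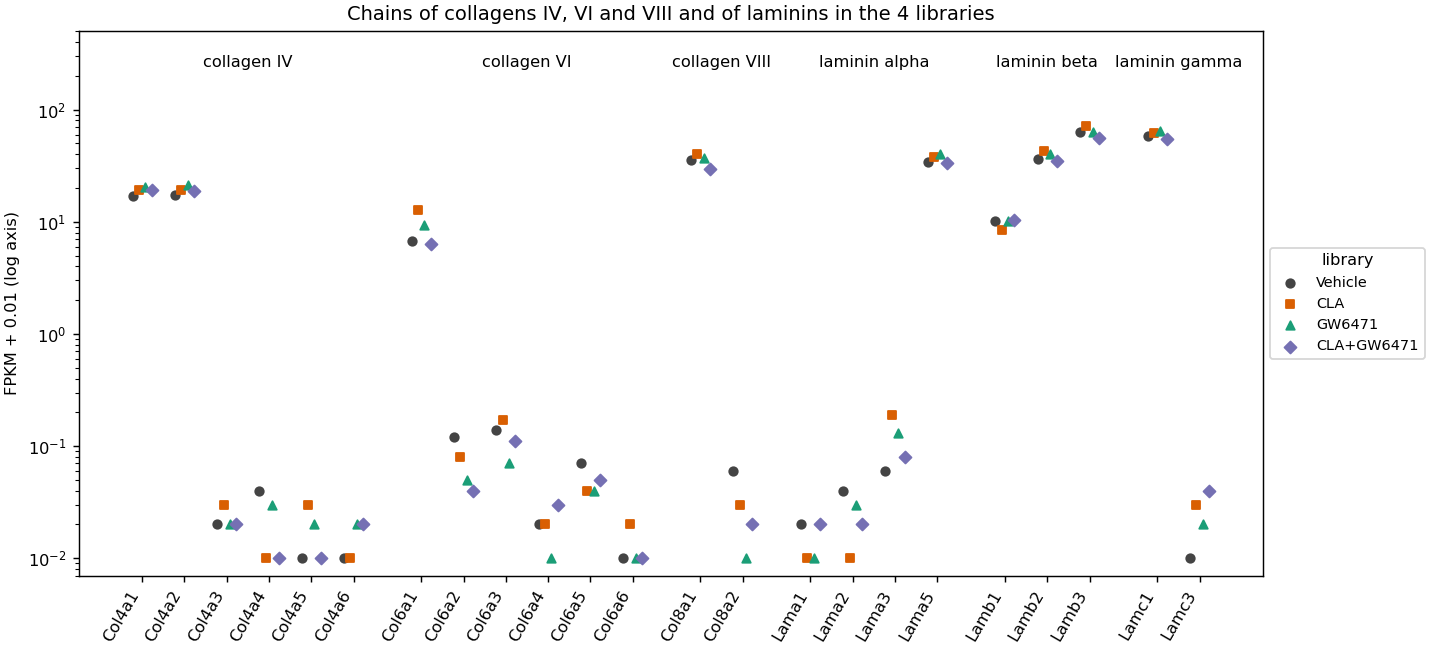
FPKM + 0.01 (log axis) of chains of collagens IV, VI and VIII and of laminins, 1 marker per library, grouped by protein. In collagens VI and VIII only Col6a1 and Col8a1 stand above 1 FPKM, while Col4a1 and Col4a2 lie at the same height, and Lama5 is the only alpha laminin above 1 FPKM.

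Among metalloproteinases, 7 of 14 reached a mean of 1 FPKM, and Mmp13 made up most of the sum. Mmp13, which cleaves fibrillar collagen, ranked 95th among all genes. It was at 961 FPKM in Vehicle, 507 with CLA, 755 with GW6471 and 1006 with both. Mmp24 was at 46.0 FPKM in Vehicle, 26.1 with CLA, 31.2 with GW6471 and 44.4 with both. Both genes were lowest in CLA and next lowest in GW6471, with Vehicle and CLA+GW6471 close to each other. They lie on different chromosomes, and their promoter windows share neither motif. The part of position or motifs in this order was not tested. Mmp24 shares 637 bp of exon with BC029722 on the opposite strand in mm9, and the strand setting of the libraries was not given in the sources used here, so its reads and those of that gene cannot be told apart over this stretch.

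Mmp10, a broad-range stromelysin, was at 9.12 FPKM in Vehicle, 8.02 with CLA, 5.91 with GW6471 and 5.87 with both. It was lower in both libraries with GW6471 than in both without, a pattern unlike that of Mmp13 in the same cluster. The remaining genes of the cluster were low, with Mmp3 at 0.34, 0.56, 0.36 and 0.74 FPKM, or about 11, 19, 12 and 26 reads, and Mmp12 at 0.07 FPKM or less. Mmp14, the membrane-anchored activator of pro-MMP2, was at 40.5 FPKM in Vehicle, 50.2 with CLA, 45.1 with GW6471 and 37.9 with both. Its best-known substrate, Mmp2 or gelatinase A, was at 0.02 to 0.08 FPKM. Mmp9, the other gelatinase, was at 0.45, 0.17, 0.27 and 0.31 FPKM. Mmp11, or stromelysin 3, was at 6.65, 5.97, 6.32 and 7.4 FPKM, again lowest in CLA. Mmp28, or epilysin, was at 0.94, 1.19, 1.69 and 0.96 FPKM, which stands for 61 to 111 reads, and it shares 465 bp of exon with 1700020L24Rik on the opposite strand.

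The inhibitors were expressed well apart from Timp4. Timp2, which blocks MMP2 and also takes part in its activation by MMP14, was at 107 FPKM in Vehicle, 132 with CLA, 115 with GW6471 and 102 with both. Mmp14 and Timp2 kept a ratio of 0.373 to 0.394. Timp1, an inducible inhibitor in injured liver, was at 46.9, 50.6, 41.7 and 46.2 FPKM. The ratio of Mmp13 to Timp1 was 20.5 in Vehicle, 10.02 with CLA, 18.1 with GW6471 and 21.8 with both, so CLA stood apart. Timp3, which is held in the matrix, was at 35.6, 40.1, 45.3 and 35.0 FPKM and shares 1733 bp of exon with Syn3 on the opposite strand. Of the crosslinking oxidases, Loxl2 was at 0.85, 1.21, 0.99 and 0.96 FPKM and Loxl1 was near 0.

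**Figure D3:**
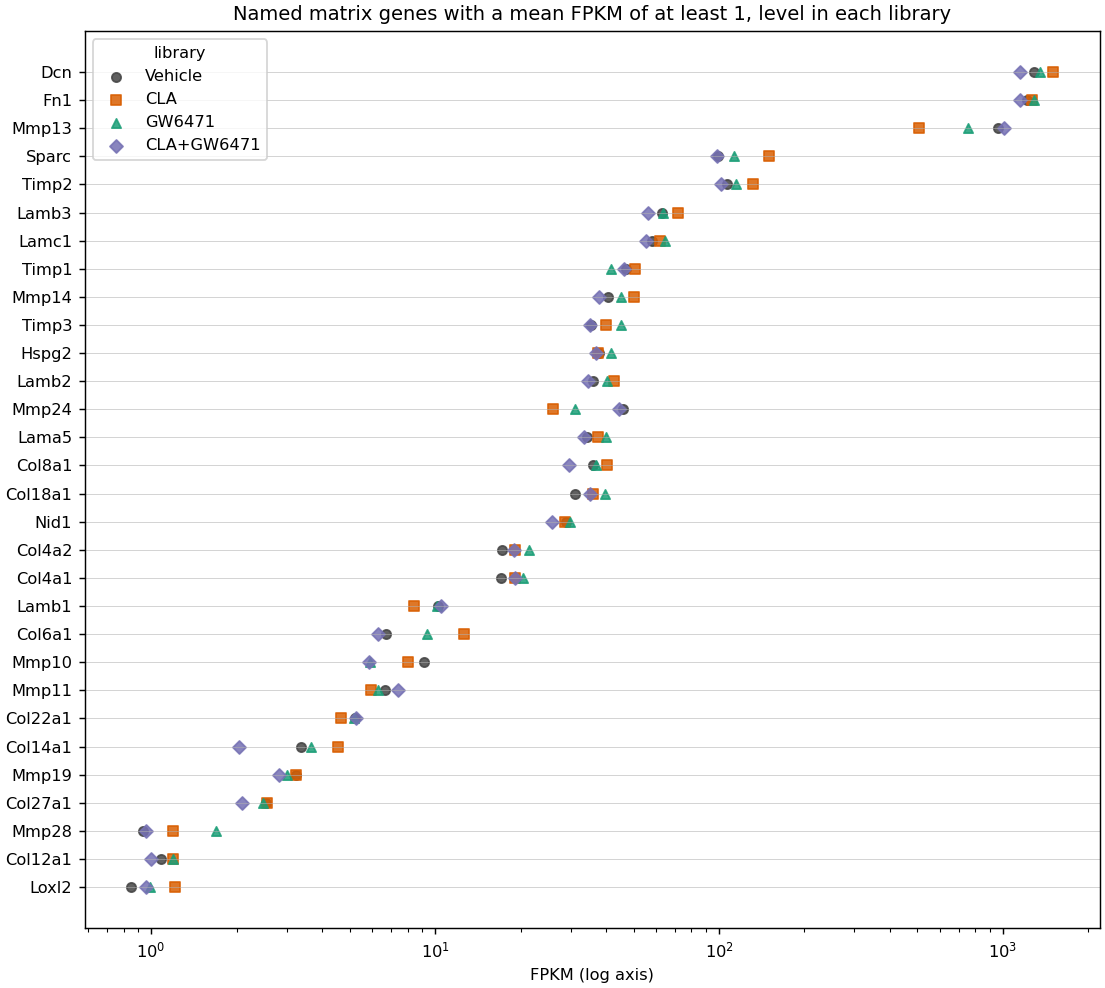
FPKM (log axis) of the named matrix genes with a mean of at least 1 FPKM in each of the 4 libraries, 1 marker per library. Most genes span a narrow range, with CLA often the highest marker, while Mmp13 and Mmp24 have CLA as the lowest.

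Groups were compared as log2 ratios of FPKM + 0.1 over the 31 genes with a mean of at least 1 FPKM, and a gene was called higher or lower from a ratio of 1.5-fold. Intervals are 95% counting intervals from estimated reads, which cover counting error only and not differences between mice. The 47 matrix genes under a mean of 1 FPKM were not counted. In bulk tissue, fewer cells of a type and less RNA per cell cannot be told apart, which holds for every difference here.

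CLA against Vehicle asked what dietary CLA changed. Col6a1 was 1.87-fold higher (log2 0.90, interval 0.76 to 1.07) and Sparc was 1.50-fold higher (log2 0.59, interval 0.53 to 0.64). Mmp13 was 1.90-fold lower (log2 -0.92, interval -0.95 to -0.90) and Mmp24 was 1.76-fold lower (log2 -0.81, interval -0.89 to -0.74). Thus 2 of 31 genes were higher, where 7.34% of all 10355 genes with a mean of at least 1 FPKM were, and 2 were lower, where 4.97% of all genes were. The median log2 ratio was 0.14 for the 31 genes and -0.01 for all genes, with 22 genes above 0 and 9 below. Structural genes and inhibitors lay mostly above 0, with Dcn at 0.23, Timp2 at 0.30 and Timp3 at 0.17, and 5 of 7 metalloproteinases lay below. Sparc was called only just, and its ratio was under 1.5-fold when the libraries were scaled to an equal FPKM sum (log2 0.56).

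GW6471 against Vehicle asked what the antagonist changed on the linoleic acid diet. Mmp28 was 1.72-fold higher (log2 0.78, interval 0.37 to 1.31) and Mmp10 was 1.53-fold lower (log2 -0.62, interval -0.89 to -0.36). Neither call held throughout: with a pseudocount of 1 the log2 ratio of Mmp28 was 0.47, and with an equal FPKM sum that of Mmp10 was -0.58. This was 1 of 31 genes in each direction, where 3.29% of all genes were higher and 2.11% lower. Mmp24 and Col6a1 were short of 1.5-fold, with log2 ratios of -0.56 and 0.48. The median was 0.10 for the 31 genes and -0.0041 for all genes, with 21 of the 31 above 0 and 10 below, and over all 78 genes with no filter it was 0.0054. Mmp13 had a log2 ratio of -0.35, and Timp3 one of 0.35.

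CLA+GW6471 against CLA asked what the antagonist changed on the CLA diet. Mmp13 was 1.99-fold higher (log2 0.99, interval 0.97 to 1.01) and Mmp24 was 1.70-fold higher (log2 0.76, interval 0.69 to 0.85). Col14a1 was 2.17-fold lower (log2 -1.12, interval -1.37 to -0.94), Col6a1 was 1.99-fold lower (log2 -0.99, interval -1.16 to -0.85) and Sparc was 1.52-fold lower (log2 -0.60, interval -0.66 to -0.55). These were 2 of 31 genes higher, where 6.85% of all genes were, and 3 lower, where 9.17% were. The median was -0.19 for the 31 genes and 0.01 for all genes, with 26 genes below 0 and 5 above. Dcn had a log2 ratio of -0.39 and Timp2 one of -0.37. This comparison shares the CLA library with that of CLA against Vehicle, so a value that was extreme in that library enters both.

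CLA+GW6471 against GW6471 asked what CLA changed under the antagonist. Col14a1 was 1.76-fold lower (log2 -0.82, interval -1.07 to -0.62) and Mmp28 was 1.69-fold lower (log2 -0.76, interval -1.27 to -0.35), the latter short of 1.5-fold with a pseudocount of 1 (log2 -0.46). Thus 2 of 31 genes were lower, where 3.89% of all genes were, and 0 were higher, where 2.83% were. The median was -0.18, with 25 genes below 0 and 6 above. Col6a1 at -0.57 and Mmp24 at 0.51 were short of 1.5-fold, and Mmp13 had a log2 ratio of 0.41. With an equal FPKM sum, 3 genes were lower instead of 2. An equal FPKM sum shifted all log2 ratios of a comparison alike, by at most 0.066 in size, and thereby changed the sign of Col27a1, Col22a1, Lamb1 or Col4a1, whose ratios lay within that shift of 0.

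**Figure D4:**
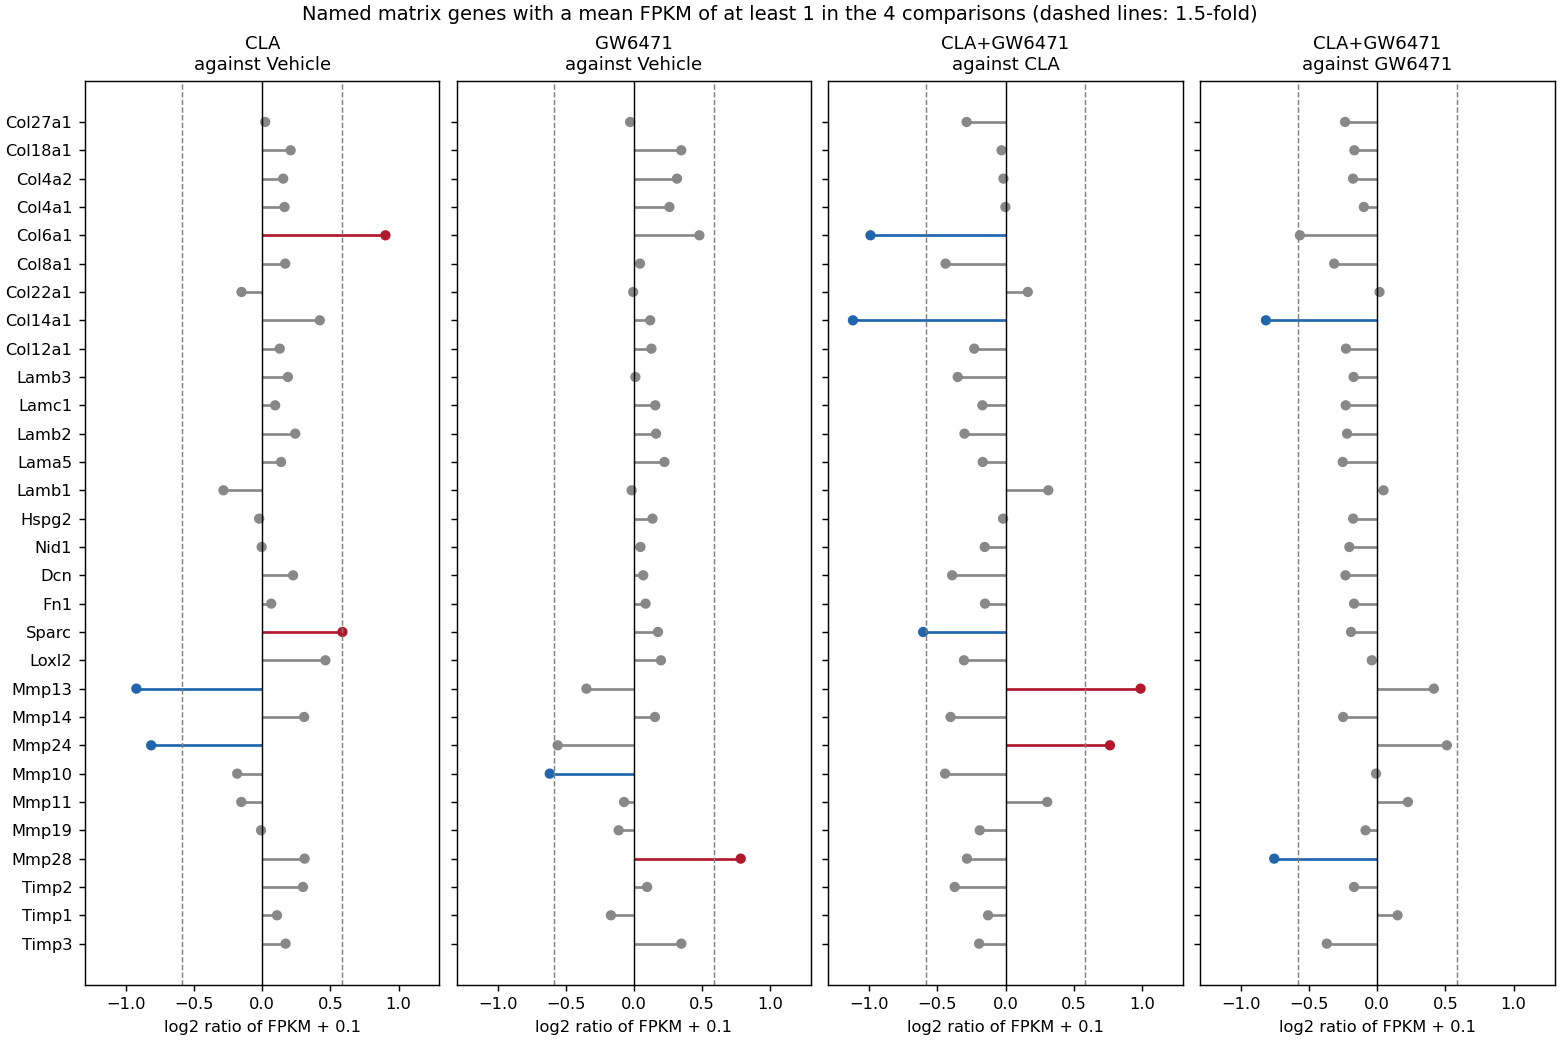
Log2 ratios of FPKM + 0.1 for the named matrix genes with a mean of at least 1 FPKM in the 4 comparisons, 1 row per gene in order of role, with dashed lines at 1.5-fold. The points lie mostly above 0 in CLA and in GW6471 against Vehicle and mostly below 0 in CLA+GW6471 against CLA and against GW6471.

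**Figure D5:**
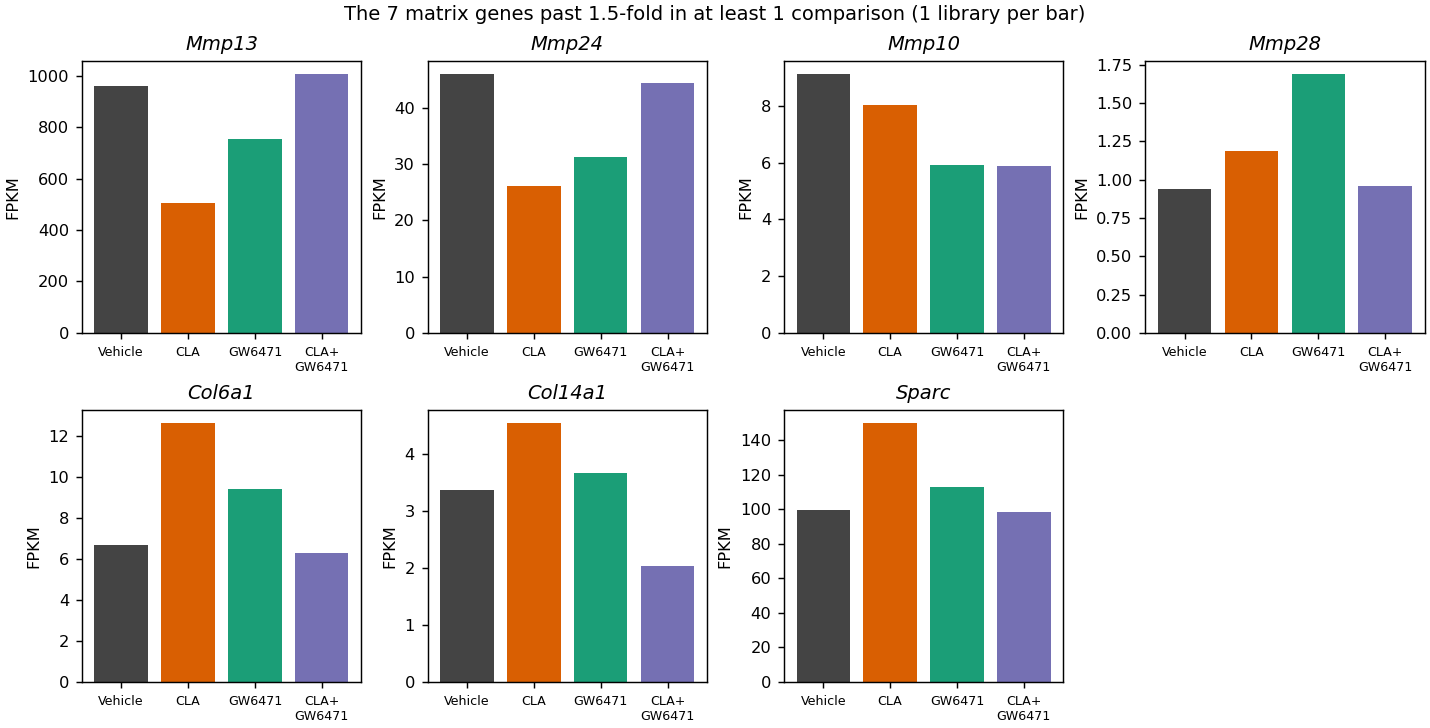
FPKM of the 7 matrix genes past 1.5-fold in at least 1 comparison, 1 panel per gene with its own axis and 1 bar per library. Mmp13 and Mmp24 are lowest in CLA, Sparc, Col6a1 and Col14a1 are highest in CLA, Mmp28 is highest in GW6471, and Mmp10 is lower in the libraries with GW6471.

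Across the 4 comparisons, 7 of the 31 genes (22.6%) passed 1.5-fold at least once, where 20.1% of all genes did, a share near that of genes in general. The median ratio of the highest to the lowest library was 1.27 for both. The libraries were ordered unevenly, however. CLA+GW6471 was the lowest library for 20 of the 31 genes (64.5%), where it was lowest for 27.5% of all genes, and CLA was the highest for 14 (45.2%), where it was highest for 34.7% of all genes. GW6471 was the highest for 10 (32.3%), against 18.9% of all genes, and the lowest for 1 (3.23%), against 20.5%. Laminins summed to 208 FPKM in Vehicle, 229 with CLA, 224 with GW6471 and 195 with both, the inhibitors to 190, 222, 201 and 183 FPKM, and the metalloproteinases to 1068, 603, 849 and 1107 FPKM. The summed markers of hepatocytes and stellate cells given above, and those of endothelium (1.31 to 2.22 FPKM), were also highest in CLA and lowest in CLA+GW6471. Of the 6 hepatocyte markers with a mean of at least 1 FPKM, Alb, Trf, Fgb and Apob had that order, while Ass1 was lowest in Vehicle and Hnf4a highest there. The sum of simple epithelial markers had it too, through Spp1 (372, 574, 453 and 302 FPKM). Krt18, Krt8 and Krt7 were instead highest in Vehicle and lowest in GW6471, and Epcam was highest in CLA and lowest in Vehicle. Sox9 had the reverse order, lowest in CLA and highest in CLA+GW6471, at 54.7, 34.7, 48.7 and 57.05 FPKM. The stratified epithelial sum, nearly all Sprr1a, was also lowest in CLA and highest in CLA+GW6471, at 19049, 15815, 18798 and 26119 FPKM. Mmp13 and the metalloproteinase sum were likewise lowest in CLA and highest in CLA+GW6471. Krt5, the other stratified marker with a mean of at least 1 FPKM, was highest in CLA, at 2.99, 4.29, 2.79 and 2.94 FPKM. The macrophage list was highest in CLA and lowest in Vehicle. The part of these markers in the differences was not tested.

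Genes that act on or beside the matrix were examined from further lists. The shares of all genes that were higher and lower were 7.34% and 4.97% in CLA against Vehicle, 3.29% and 2.11% for GW6471 against Vehicle, 6.85% and 9.17% for CLA+GW6471 against CLA, and 2.83% and 3.89% for CLA+GW6471 against GW6471. Of 12 collagen-processing genes with a mean of at least 1 FPKM, 4 were higher (7.34% of all genes) and 0 lower (4.97%) in CLA against Vehicle. In the other comparisons, in the order above, 2, 0 and 1 were higher and 0, 3 and 2 lower. P4ha2, a prolyl hydroxylase subunit that makes the collagen helix stable, was at 17.6 FPKM in Vehicle, 35.9 with CLA, 31.3 with GW6471 and 20.7 with both. P4ha1, the other main catalytic subunit, was at 28.0, 52.2, 50.4 and 30.7 FPKM. Both hydroxylase genes were thus higher in the CLA and GW6471 libraries. Among the collagens, Col1a1 and Col3a1 were near 0, while Col8a1, Col18a1, Col4a2 and Col4a1 had means of 35.7, 35.5, 19.2 and 18.9 FPKM. Plod1, a lysyl hydroxylase, was at 2.01, 3.59, 2.54 and 2.70 FPKM. The highest genes of the list were P4hb, the shared beta subunit, Pcolce and Ppib, with means of 480, 213 and 171 FPKM.

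Of 10 genes of TGF-beta signalling, 3 were higher (7.34% of all genes) and 0 lower (4.97%) in CLA against Vehicle, with 1, 0 and 0 higher and 0, 2 and 2 lower in the other comparisons. Tgfbi, a secreted TGF-beta target, was at 2.82 FPKM in Vehicle, 10.3 with CLA, 4.71 with GW6471 and 1.72 with both, and Thbs1, an activator of latent TGF-beta, was at 118, 226, 173 and 91.4 FPKM. Both had the order seen in Col6a1, with CLA highest and CLA+GW6471 lowest. Ltbp4, which holds latent TGF-beta in the matrix, was at 3.52, 5.88, 5.01 and 4.09 FPKM. The matricellular genes Ctgf and Cyr61 had means of 582 and 111 FPKM. Of 17 matrix receptors, 2 were higher (7.34% of all genes) and 0 lower (4.97%) in CLA against Vehicle, with 0, 1 and 0 higher and 0, 3 and 2 lower in the others. Dag1, which encodes the laminin and perlecan receptor dystroglycan, was at 15.9, 28.1, 23.0 and 15.3 FPKM, and Itga3, the alpha chain of a laminin receptor, was at 503, 350, 446 and 549 FPKM. The receptor genes Cd44 and Itgb1 had means of 169 and 162 FPKM, and the integrin beta chains Itgb3 and Itgb6 ones of 2.83 and 1.70 FPKM. Of 15 other matrix proteases and inhibitors, 1 was higher (7.34% of all genes) and 0 lower (4.97%) in CLA against Vehicle, with 2, 0 and 0 higher and 0, 1 and 1 lower in the others. Plat, a plasminogen activator, was at 34.4, 41.2, 53.5 and 54.3 FPKM, and Adamts4, an aggrecanase, was at 11.8, 18.3, 17.7 and 11.7 FPKM. Plaur, the urokinase receptor, was lowest in CLA, at 137, 101, 113 and 143 FPKM. Among the highest genes were Bsg, an inducer of metalloproteinases, and Ctsl, with means of 585 and 216 FPKM.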

How the data were processed

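RNA-seq of mouse tissue labelled liver gave 1 library for each of 4 conditions, which were assigned from the labels. The libraries with GW6471 rest on the labels, since the paper does not describe their sequencing. The authors mapped reads to mm9 with BWA and Bowtie and quantified genes with Cufflinks, without stated versions, and deposited FPKM with 2 decimals. The table names no unit. The annotation, the filter behind the 15500 genes and the strand setting are not given in the sources used here.

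Genes were matched by symbol. The genes and lists were chosen with earlier results of these data known. Ratios were taken on the deposited FPKM with 0.1 added, on the log2 scale, with a mean of at least 1 FPKM for counting and 1.5-fold as the limit. The script that counts genes past the limit and the depth estimate were tested on simulated data. Named genes were those with a mean of at least 5 FPKM, those past 1.5-fold in any comparison, and fixed genes of interest such as Col1a1 and Col3a1. Each further matrix list contributed its 3 highest genes and the 3 with the largest ratios at a mean of at least 1 FPKM. Low genes of interest and partner chains, such as Bgn, Mmp3, Col6a2 and Col20a1, were added after their values were seen. Of the genes this rule gave, 2 are not reported here by name, and the counts and sums include them. The lists were collagen processing, matrix receptors, other matrix proteases and inhibitors, TGF-beta ligands and targets, and markers of 6 cell types.

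Depth was estimated from the step that 1 read makes in the FPKM of short genes with a single transcript. There were 500 such genes, and only low values entered the estimate, 128 to 137 per library. The estimates ran from 18770976 to 19260657 reads, and exact Clopper-Pearson intervals (95%) were built on them with GENCODE vM1 lengths. A value of 0 can be a failed estimate and was given as listed. Positions came from GENCODE vM1 (mm9). Promoters came from RefSeq (GRCm38.p6), and each printed window matched its mm9 chromosome exactly once. Alternatives were other pseudocounts, filters, scalings and fold limits. The tools were pandas 2.3.3, numpy 2.4.6, matplotlib 3.10.9 and scipy 1.17.1 under Python 3.11.15.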

Additional observations from a re-analysis of the deposited data

Results flagged for a closer look

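For 6 of the 7 matrix genes past 1.5-fold in some comparison, the ratio of CLA to Vehicle and the ratio of CLA+GW6471 to GW6471 went opposite ways. These comparisons share no library, each rests on 1 library per group, and the difference between them was not tested. Mmp13 had log2 ratios of -0.92 without GW6471 and 0.41 with it, and Mmp24 had -0.81 and 0.51. Col6a1 had 0.90 and -0.57, Sparc had 0.59 and -0.19, Col14a1 had 0.42 and -0.82, and Mmp28 had 0.31 and -0.76. The counting interval of Mmp28 in CLA against Vehicle ran from -0.17 to 0.84, so its direction there was not settled. Of the 31 matrix genes counted, 26 (83.9%) had opposite signs in these comparisons. So had 73.0% of all genes with a mean of at least 1 FPKM. The share among all genes past 1.5-fold in some comparison was not counted.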

How the results depend on the processing

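No paired analysis was possible because the labels give each condition a single library, numbered 1, and leaving out a library would empty its condition. Under the alternatives, 57 of 80 counts and medians stayed within 1.5 times the count or 0.1 of the median, and 23 counts moved further. All 24 medians kept their sign, although that of GW6471 against Vehicle was 0.0054 with no filter. With a pseudocount of 1, the genes higher numbered 1 in CLA against Vehicle and 0 in GW6471 against Vehicle, and the genes lower numbered 0 in GW6471 against Vehicle and 1 for CLA+GW6471 against GW6471. With no filter on level, all 78 genes counted. Then 6 were higher and 7 lower in CLA against Vehicle, and 2 and 4 for GW6471 against Vehicle. In the same setting, 8 were higher and 7 lower for CLA+GW6471 against CLA, and 6 and 4 in CLA+GW6471 against GW6471. The shares of all genes given above are for the processing without these changes. No such share stands beside the counts under the alternatives. With a minimum mean of 5 FPKM (25 genes), 0 were higher in GW6471 against Vehicle and 0 lower in CLA+GW6471 against GW6471. With an equal FPKM sum, 1 was higher in CLA against Vehicle and 0 were lower in GW6471 against Vehicle, while 3 instead of 2 were lower in CLA+GW6471 against GW6471. At a limit of 2-fold, only Col14a1 passed in any comparison: 0 genes were higher and 0 lower against Vehicle for CLA and for GW6471, 0 higher and 1 lower in CLA+GW6471 against CLA, and 0 lower in CLA+GW6471 against GW6471. Of 87 ratios of single genes, 69 stayed on their side of the limit and 18 were no longer past it. A change of filter leaves the ratio of a gene as it was, so the ratios under other filters could not move. Sparc in CLA against Vehicle fell to a log2 ratio of 0.58 with a pseudocount of 1, and Mmp10 in GW6471 against Vehicle was at -0.55 with that pseudocount and -0.58 with an equal FPKM sum. At the estimated depth most levels under 0.1 FPKM stand for few reads, whereas Col7a1, just under 1 FPKM, has more reads than Mmp28.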
